A study of Mus musculus with 6 samples.

Results

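The 10 cytokine genes described here were *Il12a*, *Il12b*, *Il27*, *Ebi3*, *Il15*, *Il18*, *Il1b*, *Il6*, *Tnf* and *Tgfb1*, taken by name from the 54532 genes counted in each of 6 libraries of cDC1s FL. These are conventional type 1 dendritic cells (cDC1s) grown from mouse bone marrow for 8 days with FLT3L (80 ng/mL), a growth factor for dendritic cells (DCs), and FACS sorted on CD24+CD11c+ events that lacked B220, CD115 and CD172a. The control libraries, fl/fl 1, 2 and 3, carried the genotype *c-Jun/JunB* fl/fl, with loxP-flanked c-Jun and JunB alleles and no Cre. The other libraries, Δ/Δ 1, 2 and 3, carried the same floxed alleles and Cre driven by the *Itgax* promoter (*c-Jun/JunB* Δ/Δ *Itgax*-Cre in the words of the study), which is active once a cell expresses CD11c. The mice were adults of either sex on a mixed 129 Sv × C57BL/6 background, and no stimulus of the cells beyond FLT3L is named. The comparison asked which cytokine transcripts differ in cDC1s FL when both AP-1 proteins are deleted. A figure legend of the study counts the points of its RNA-Seq samples as individual mice, which the labels do not state, and p-values measure the spread between these libraries.

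Cytokines are the secreted signals by which DCs instruct other cells. cDC1s are known for IL-12, a dimer of p40 (*Il12b*) and p35 (*Il12a*) that drives type 1 responses of T and NK cells, and for IL-15, which sustains NK cells and memory CD8 T cells. IL-1β, IL-6 and TNF are inflammatory cytokines whose transcripts are low at rest and induced within hours of microbial stimulation, IL-18 is made in advance and released after cleavage, and TGF-β1 is made by most blood cells in a latent form. c-Jun and JunB are subunits of AP-1, a dimeric transcription factor that binds TGANTCA (N is any base) and, together with IRF proteins, composite sites.

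Reads on genes numbered 21693217 to 26788296 per library, and levels are given as CPM, reads on a gene relative to library size after edgeR's TMM scaling, with the SD over 3 libraries. *Junb* had a mean of 334 ± 71.5 CPM in fl/fl, against 164 ± 50.9 CPM in Δ/Δ cells, without overlap (log2FC −1.02 ± 0.25, edgeR adjusted p = 0.0729). *Jun* had 62.2 ± 9.26 and 51.0 ± 8.46 CPM, with overlap (log2FC −0.29 ± 0.15, edgeR adjusted p = 0.345), and *Itgax* fell from 131 ± 20.0 to 56.3 ± 12.2 CPM (edgeR adjusted p = 0.0147). The part of either gene lost to Cre is not stated in the sources, so these reads do not measure the share of deleted cells. The study reports deletion of both genes by RT-qPCR in cDC1s and cDC2s sorted from spleen and in cDC1s of lymph nodes. It also measured both transcripts by RT-qPCR in cDC1s FL sorted from such cultures. All 9 cDC1 markers were present in every library, with *Irf8* at 2653 to 2879 CPM. Their sum was 8514 to 8622 CPM in fl/fl, against 7055 to 8316 CPM in Δ/Δ cells, without overlap. Of the 9, 5 had a log2FC below 0 and 4 above. An edgeR adjusted p under 0.05 was reached by 2, both lower in Δ/Δ, and by 3.88% of all tested genes in either direction. These were *Xcr1* (log2FC −1.42 ± 0.17, edgeR adjusted p = 0.00812) and *Tlr3* (log2FC −0.77 ± 0.13, edgeR adjusted p = 0.0226). *Cadm1* was higher in Δ/Δ without overlap (log2FC 0.32 ± 0.07, edgeR adjusted p = 0.0615). The Δ/Δ libraries differed more among themselves than the fl/fl libraries did, with a chi-square per degree of freedom over genes of 27.9 to 38.5 against 6.35 to 10.4. Δ/Δ 2 stood apart in genes of mature DCs, which summed to 2260 CPM there, 513 and 702 CPM in Δ/Δ 1 and 3, and 1087 to 1476 CPM in fl/fl libraries. It also had the highest level of 7 of 8 basophil and mast cell markers (sum 19.6 CPM, against 1.00 to 4.32 CPM elsewhere) and of 5 of 6 B cell markers, while all 6 T and NK cell markers were under 1 CPM in every library. Markers of other myeloid cells moved with genotype. Those of cDC2s, the other conventional DC subset, summed to 224 to 370.1 CPM in fl/fl, against 518 to 752 CPM in Δ/Δ cells, and 3 of 9 passed (*Cd209a*, *Cd4* and *Klf4*, all higher). Monocyte and macrophage markers summed to 2450.1 to 2870.5 and 3466 to 4312 CPM, and 2 of 7 tested passed, both higher (*Ccr2* and *Adgre1*). Plasmacytoid DC markers summed to 186 to 199 and 215 to 254 CPM, and 1 of 5 tested passed, higher (*Ccr9*). Of these 5, 4 had a log2FC above 0 and 1, *Bst2*, was lower. It fell from 100 ± 10.2 to 75.7 ± 4.51 CPM without overlap (log2FC −0.41 ± 0.09, edgeR adjusted p = 0.0572). In none of these 3 lists did the sums of the genotypes overlap, and their part in the results on the cytokine genes was not tested. Results that rest on Δ/Δ 2 are given with and without it.

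*Il15* was the member that passed the test, lower in every Δ/Δ library than in any fl/fl library. *Tnf* was higher in all 3 Δ/Δ libraries but missed the adjusted threshold. *Il12b*, *Il1b* and *Il6* varied widely among the Δ/Δ libraries, around the fl/fl level, and did not pass. *Il18*, *Tgfb1* and *Ebi3* differed by at most 0.41 on the log2 scale, and *Il12a* and *Il27* were near the limit of detection. Differences were tested with edgeR's quasi-likelihood test over the 12894 genes with enough reads, and are given as log2FC, the log2 fold change of Δ/Δ over fl/fl with its standard error after ±. An adjusted p under 0.05 together with a log2FC of 1 or more, up or down, counted as a call. Of the 10 genes, 8 had enough reads for this test and 1, *Il15*, was called, lower in Δ/Δ, where 0.869% of all tested genes were called lower and 0.993% higher. The adjusted p alone was passed by the same 1 gene, against 1.85% of all tested genes lower and 2.03% higher. Every library of one genotype lay above every library of the other for 4 of the 8 genes (*Il15*, *Tnf*, *Il18* and *Ebi3*), a pattern held by 26.0% of all tested genes. The median log2FC was −0.01 over the 8 genes and 0.00 over all tested genes, with 4 members higher and 4 lower.

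**Figure D1:**
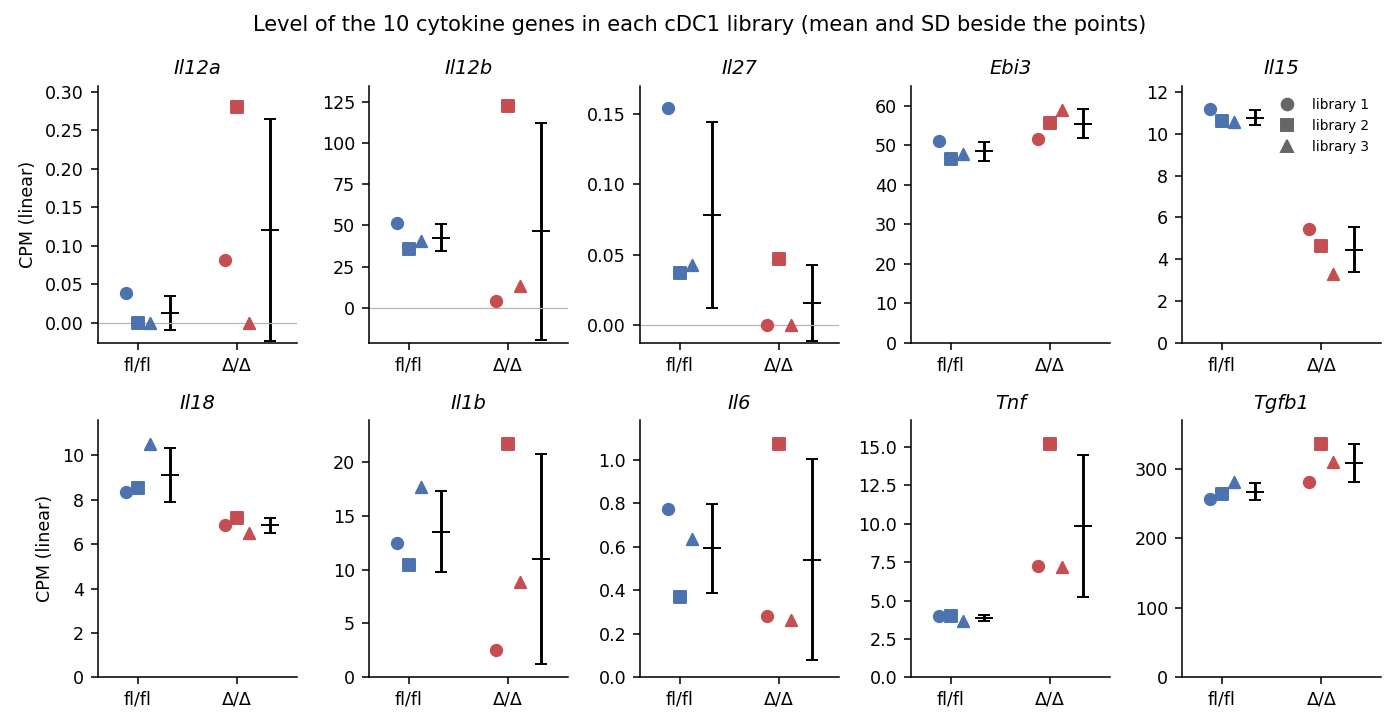
CPM (linear axis, own scale for each gene) of the 10 cytokine genes in the 3 fl/fl (blue) and 3 Δ/Δ (red) libraries, with the mean and SD beside the points. *Il15* sits at 10.6 to 11.2 CPM in fl/fl, against 3.30 to 5.44 CPM in Δ/Δ cells, and the Δ/Δ points of *Il12b* run from 4.26 to 122 CPM.

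Levels of different genes were compared per kilobase of exon (RPKM). In fl/fl libraries the order of mean levels ran from *Tgfb1* (53.0 ± 2.52 RPKM) through *Ebi3* (42.0 ± 2.05), *Il12b* (21.7 ± 4.22), *Il18* (8.85 ± 1.17), *Il1b* (7.10 ± 1.96), *Il15* (4.77 ± 0.154) and *Tnf* (2.36 ± 0.121) to *Il6* (0.244 ± 0.0839), with *Il27* and *Il12a* under 0.08 RPKM. Of the 8 tested genes, the neighbours *Il18* and *Il1b* overlapped in their libraries and no other neighbours did. *Tgfb1* and *Ebi3* were thus abundant even without stimulation, with an RPKM in fl/fl libraries above that of 93.6% and 91.5% of the tested genes, while *Il6* was above 6.02%. In Δ/Δ libraries *Il15* had 1.97 ± 0.476 RPKM and *Tnf* 6.02 ± 2.82 RPKM, so their order was turned, and no Δ/Δ library of *Il15* reached the lowest of *Tnf* (4.38 RPKM). *Il12b* spanned 2.17 to 62.2 RPKM in Δ/Δ libraries, a range that overlapped that of each other tested member but *Il6*.

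**Figure D2:**
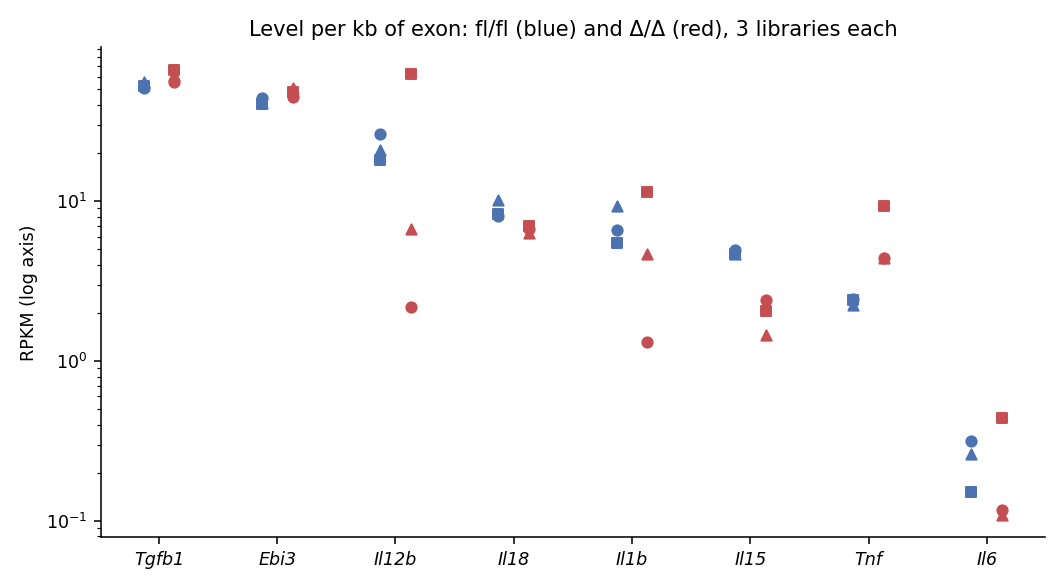
RPKM (log axis) of the 8 tested cytokine genes, ordered by their fl/fl mean, with 3 fl/fl (blue) and 3 Δ/Δ (red) libraries each. *Tgfb1* and *Ebi3* have the highest means in both genotypes, and *Il12b* spreads from 2.17 to 62.2 RPKM in Δ/Δ libraries.

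*Il15* (ENSMUSG00000031712.10, GRCm38 chromosome 8, 82331632 to 82403222, minus strand) had 11.2, 10.6 and 10.6 CPM in fl/fl 1, 2 and 3, against 5.44, 4.62 and 3.30 CPM in Δ/Δ 1, 2 and 3. The fl/fl libraries lay within 1.06 times of each other, and all Δ/Δ libraries were lower, with no overlap. Its mean fell from 10.8 ± 0.347 to 4.45 ± 1.08 CPM, 2.42-fold lower by edgeR (log2FC −1.27 ± 0.20, adjusted p = 0.0196), on 825 and 308 reads. The log2FC was −1.30 without Δ/Δ 2 (edgeR adjusted p = 0.0308). Leaving out any of the fl/fl libraries kept the size (−1.29 to −1.25) and lost the call, the edgeR adjusted p being 0.110, 0.103 and 0.0731 when fl/fl 1, 2 or 3 was dropped. In these fits 95, 95 and 201 genes passed in all, against 500 with the 6 libraries. *Il15ra*, the receptor chain that presents IL-15 on the DC surface, had 18.9, 13.2 and 12.6 CPM in fl/fl, against 3.04, 12.9 and 5.64 CPM in Δ/Δ cells. Δ/Δ 1 and 3 lay under all fl/fl libraries and Δ/Δ 2 among them (log2FC −1.06 ± 0.48, edgeR adjusted p = 0.284, and −1.79 ± 0.32, adjusted p = 0.0302 without Δ/Δ 2). Of the signalling chains that respond to IL-15, *Il2rb* was at 0.22 to 0.70 CPM and *Il2rg* at 12.1 to 33.8 CPM across the 6 libraries, and neither passed the test.

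Across the 6 libraries, the 3 tested genes whose log2 CPM followed that of *Il15* most closely were *Thrap3* (Pearson's r = 0.999), *Ddx41* (0.998) and *Cpq* (0.997). *Cpq*, a peptidase, had 49.7, 47.2 and 46.6 CPM in fl/fl, against 26.3, 22.9 and 18.9 CPM in Δ/Δ cells. *Thrap3* had 241 to 242 CPM in fl/fl, against 209 to 222 CPM in Δ/Δ cells, so a high r came here with a small difference in level. The 6 points share the step between genotypes, and 24 of 12893 genes had an r over 0.99. *Irf7*, a transcription factor of the interferon pathway to which *Il15* is known to respond, also fell, without overlap between genotypes. It had 113, 94.0 and 77.1 CPM in fl/fl, against 24.6, 27.3 and 45.3 CPM in Δ/Δ cells (log2FC −1.54 ± 0.25, edgeR adjusted p = 0.0209). *Irf7* was not among the genes closest to *Il15*, with an r of 0.794 at rank 1423 of 12893. Among the Δ/Δ libraries *Irf7* and *Il15* ran in opposite order. The cDC1 marker *Xcr1* had an r of 0.985 with *Il15*, at rank 37. A link of *Il15* to either gene was not tested.

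*Tnf* (ENSMUSG00000024401.14, GRCm38 chromosome 17, 35199381 to 35202007, minus strand) had 4.01, 3.97 and 3.65 CPM in fl/fl 1, 2 and 3, against 7.22, 15.2 and 7.18 CPM in Δ/Δ 1, 2 and 3. The fl/fl libraries were nearly level, each Δ/Δ library lay above them, and Δ/Δ 2 was the highest. The mean was 3.88 ± 0.198 and 9.87 ± 4.62 CPM, 2.54-fold higher in Δ/Δ by edgeR, on 297 and 667 reads. The log2FC was 1.35 ± 0.32, and its edgeR adjusted p of 0.0676 missed the threshold. Without Δ/Δ 2 the difference was smaller but less variable (log2FC 0.89 ± 0.17, edgeR adjusted p = 0.0353), and without Δ/Δ 1 it was 1.53 (edgeR adjusted p = 0.0251). The adjusted p was 0.00192 by DESeq2 and ran from 0.00192 to 0.366 over all 15 alternatives, with a higher level in Δ/Δ in each. Immediate early genes such as *Egr1*, which like *Tnf* are induced quickly on stimulation, summed to 1212 to 1596 CPM in fl/fl and reached 1473, 2583 and 2945 CPM in Δ/Δ 1, 2 and 3. With the mean log2 CPM of these 12 genes as an added term, chosen after the data were seen, the log2FC of *Tnf* was 1.00 (SE 0.43, edgeR adjusted p = 0.366) and that of *Il15* −0.99 (SE 0.24, edgeR adjusted p = 0.123). Of the 12 genes, 10 had a log2FC above 0 and 2 below, with a median of 1.03. The added term thus shared part of the step between genotypes, and this fit cannot tell them apart. In it 1.57% of all tested genes passed the adjusted p, against 3.88% without the term.

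The genes around *Tnf* showed no call. Its receptors *Tnfrsf1a* and *Tnfrsf1b* had log2FCs of 0.21 and −0.01, and *Adam17*, the protease that sheds TNF from the membrane, 0.11. Of 5 genes that destabilise transcripts of inflammatory cytokines (*Zc3h12a*, *Zfp36*, *Zfp36l1*, *Zfp36l2* and *Rc3h1*), 4 had a log2FC above 0 and none passed. *Zc3h12a* (Regnase-1) had 30.7, 30.0 and 32.5 CPM in fl/fl, against 38.7, 60.6 and 48.8 CPM in Δ/Δ cells, without overlap (log2FC 0.67 ± 0.16, edgeR adjusted p = 0.0652). *Zfp36* (tristetraprolin), itself an immediate early gene, had 254, 234 and 370 CPM in fl/fl, against 340, 670 and 744 CPM in Δ/Δ cells, with overlap (edgeR adjusted p = 0.122).

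*Il12b* (ENSMUSG00000004296.14, GRCm38 chromosome 11, 44400063 to 44414033, plus strand) had 51.7, 35.4 and 40.8 CPM in fl/fl 1, 2 and 3, against 4.26, 122 and 13.2 CPM in Δ/Δ 1, 2 and 3. Δ/Δ 1 and 3 lay under every fl/fl library and Δ/Δ 2 above every one. The Δ/Δ libraries spanned 28.7-fold and the fl/fl libraries 1.46-fold, and only 0.147% of the tested genes had a larger range among the Δ/Δ libraries on the log2 CPM scale. The means were 42.6 ± 8.30 and 46.6 ± 65.7 CPM (log2FC 0.12 ± 1.01, edgeR adjusted p = 0.962). Without Δ/Δ 2 the log2FC was −2.29 (SE 0.45, edgeR adjusted p = 0.0380), so this single library set the sign in the edgeR fit. With all 6 libraries limma-voom gave −1.23 (adjusted p = 0.490). In the edgeR fit without Δ/Δ 2, 2.76% of all tested genes passed the adjusted p lower in Δ/Δ and 2.66% higher, and of the 8 members *Il12b* and *Il15* passed as lower and *Tnf* as higher.

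*Il12a*, which encodes the p35 partner that IL-12 needs, was close to absent. It had 1, 0 and 0 reads in fl/fl and 2, 6 and 0 reads in Δ/Δ libraries, where 3 reads pooled over a genotype correspond to 0.0392 CPM (fl/fl) or 0.0436 CPM (Δ/Δ). These limits cover counting error only. Δ/Δ 2 held 6 of the 8 reads of its genotype, and the same library was highest in *Il12b*, with 2621 reads. *Il12b* had 1341, 956 and 961 reads in the fl/fl libraries. Per kilobase the fl/fl means were 21.7 RPKM for *Il12b* and 0.00756 RPKM for *Il12a*. *Il23r* and the IL-12 receptor chain *Il12rb1* were under 1 CPM in every library, and *Il12rb2* stood at 74.2 to 77.4 CPM in fl/fl, against 79.2 to 93.4 CPM in Δ/Δ cells (edgeR adjusted p = 0.201).

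*Ebi3*, which pairs with p28 (*Il27*) to form IL-27, was the steadiest of the family. It had 51.1, 46.6 and 47.7 CPM in fl/fl 1, 2 and 3, against 51.7, 55.8 and 59.1 CPM in Δ/Δ 1, 2 and 3. All Δ/Δ libraries lay above all fl/fl libraries, by a margin of 51.7 against 51.1 CPM at the closest (log2FC 0.20 ± 0.08, edgeR adjusted p = 0.226). *Il27* had 4, 1 and 1 reads in fl/fl and 0, 1 and 0 reads in Δ/Δ libraries. As for IL-12, the shared chain was abundant per kilobase (42.0 RPKM in fl/fl) and its partner near 0 (0.0763 RPKM). On the opposite strand *Gm16712* shares 270 exon bases with *Ebi3*, and *Apobr* 103 with *Il27*. Whether the deposited counts used the strand is not stated, and *Gm16712* held 112 reads over the 6 libraries, few beside *Ebi3*.

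*Il1b* (ENSMUSG00000027398.13, GRCm38 chromosome 2, 129364570 to 129371139, minus strand) had 12.5, 10.4 and 17.7 CPM in fl/fl 1, 2 and 3, against 2.52, 21.7 and 8.85 CPM in Δ/Δ 1, 2 and 3. As for *Il12b*, Δ/Δ 1 and 3 lay under every fl/fl library and Δ/Δ 2 above every one, over a smaller range (8.63-fold in Δ/Δ and 1.70-fold in fl/fl libraries). The log2FC was −0.30 (SE 0.65, edgeR adjusted p = 0.838) and −1.26 without Δ/Δ 2 (SE 0.50, edgeR adjusted p = 0.226). *Il6* showed the same split on few reads, with 20, 10 and 15 in fl/fl and 7, 23 and 6 in Δ/Δ libraries, or 0.77, 0.37 and 0.64 against 0.28, 1.07 and 0.26 CPM. The difference did not pass (log2FC −0.15 ± 0.63, edgeR adjusted p = 0.925), and its sign turned when fl/fl 1, Δ/Δ 1 or Δ/Δ 3 was left out.

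*Il18*, the IL-1 family cytokine known to induce interferon-γ together with IL-12, had 8.33, 8.53 and 10.5 CPM in fl/fl 1, 2 and 3, against 6.86, 7.19 and 6.52 CPM in Δ/Δ 1, 2 and 3. All Δ/Δ libraries were lower and none stood apart (log2FC −0.41 ± 0.15, edgeR adjusted p = 0.191). It kept this side in all 15 alternatives, between −0.49 and −0.30, and passed the adjusted p in none. Genes of the inflammasome, which matures both IL-1 family cytokines, were present in every library. *Casp1*, which cleaves them, had 26.7 to 29.8 CPM in fl/fl, against 29.3 to 46.9 CPM in Δ/Δ cells, *Pycard*, the inflammasome adaptor, 66.6 to 71.6 and 73.4 to 85.4 CPM, and *Nlrp3*, a sensor, 47.8 to 56.3 and 36.2 to 52.4 CPM. None passed the test.

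*Tgfb1* had 256, 264 and 281 CPM in fl/fl 1, 2 and 3, against 280, 335 and 310 CPM in Δ/Δ 1, 2 and 3. Δ/Δ 1 lay just under fl/fl 3, so the genotypes overlapped (log2FC 0.21 ± 0.08, edgeR adjusted p = 0.212). Downstream of it, *Tgfbr2*, the receptor that binds TGF-β, rose from 64.6 ± 1.55 to 83.8 ± 5.37 CPM (log2FC 0.38 ± 0.07, edgeR adjusted p = 0.0276). *Smad3*, the transcription factor the receptor activates, fell from 43.1 ± 4.60 to 24.0 ± 4.18 CPM (log2FC −0.85 ± 0.14, edgeR adjusted p = 0.0237). Both were without overlap between genotypes. *Furin*, the protease that processes the TGF-β1 precursor, had 162, 171 and 178 CPM in fl/fl, against 212, 203 and 238 CPM in Δ/Δ cells, also without overlap (log2FC 0.36 ± 0.08, edgeR adjusted p = 0.0536). *Itgb8*, the integrin chain that frees TGF-β1 with *Itgav*, had 1.12, 1.11 and 1.15 CPM in fl/fl, against 0.32, 2.71 and 0.13 CPM in Δ/Δ cells, again with Δ/Δ 2 above and Δ/Δ 1 and 3 below the fl/fl libraries.

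**Figure D3:**
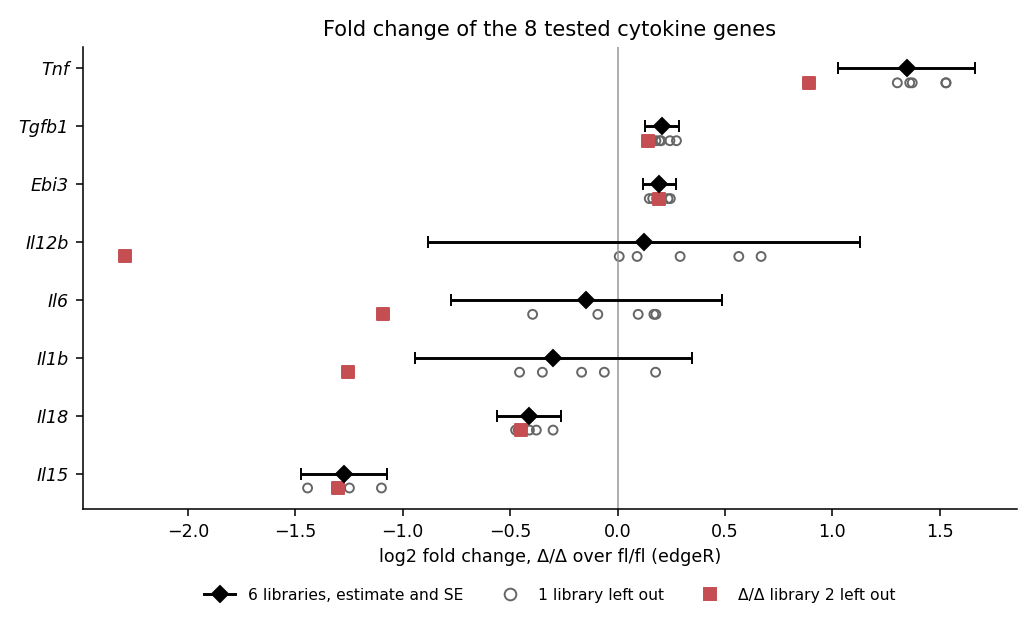
log2FC of Δ/Δ over fl/fl for the 8 tested cytokine genes by edgeR, with all 6 libraries (diamond with its standard error) and with each library left out (circles, and a red square for Δ/Δ 2). *Il15* stays between −1.44 and −1.10 and *Tnf* between 0.89 and 1.53, while *Il12b* moves to −2.29 without Δ/Δ 2.

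The 6 libraries ranked by *Il12b* in the same order as by *Ccr7* and *Fscn1*, genes of mature DCs. *Ccr7*, the receptor by which maturing DCs migrate to lymph nodes, had 221, 151 and 160 CPM in fl/fl 1, 2 and 3, against 26.9, 376 and 60.8 CPM in Δ/Δ 1, 2 and 3. *Fscn1*, which bundles actin in mature DCs, had 293, 183 and 236 CPM in fl/fl, against 31.8, 655 and 92.7 CPM in Δ/Δ cells. All 9 genes of the mature DC list were highest in Δ/Δ 2 and 6 of the 9 were lowest in Δ/Δ 1, and none passed the test between genotypes. Over all 6 libraries the genes most like *Il12b* in log2 CPM, named after their values were seen, were *Esam* (Pearson's r = 0.998), *Fscn1* (0.998) and *Ccr7* (0.997), out of 12893, with 22 genes over 0.99. *Esam* had 0.04 to 1.07 CPM, so few reads lie behind that value. The r of *Il12b* was 0.941 with *Il1b*, 0.879 with *Il6* and 0.900 with *Il15ra*, 0.317 with *Il15* and 0.114 with *Tnf*. These are descriptions over 6 points that share their libraries, and Δ/Δ 1, 2 and 3 carry most of the range.

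Relative to *Ccr7*, *Il12b* varied less than alone, with a ratio of CPM of 0.234, 0.234 and 0.255 in fl/fl and 0.159, 0.325 and 0.217 in Δ/Δ libraries. *Ccr7* was among the genes most like *Il12b* in these same libraries, so the steadier ratio restates that likeness and is no separate result. With the mean log2 CPM of the 9 mature DC genes as an added term, chosen after the data were seen, the log2FC of *Il12b* was −0.31 with a standard error of 0.14, against 1.01 before (edgeR adjusted p = 0.235). These 9 genes include *Ccr7* and *Fscn1*, so the smaller error of *Il12b* restates the same likeness and is no separate result. With this term 6.89% of all tested genes passed the adjusted p, against 3.88% without it. In the same fit *Il15* had −1.29 (edgeR adjusted p = 0.0174) and *Tnf* 1.46 (SE 0.17, edgeR adjusted p = 0.00514). *Il1b* had −0.21 (SE 0.29) and *Il6* −0.03 (SE 0.39). In bulk libraries, fewer cells of a kind and less RNA per cell cannot be told apart, so a level of *Il12b* does not say how many cells made it. The part of the basophil and mast cell markers in Δ/Δ 2, which moved with the same library, was not tested.

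**Figure D4:**
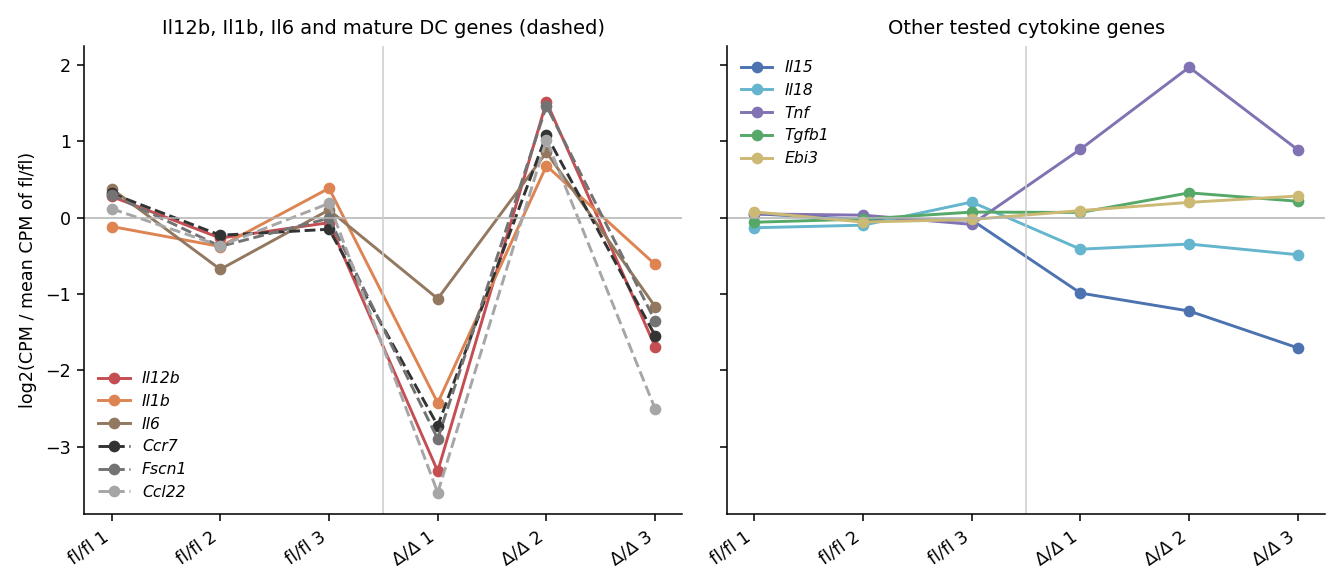
log2 of CPM over the mean CPM of fl/fl libraries, for *Il12b*, *Il1b* and *Il6* with 3 mature DC genes (left, mature DC genes dashed) and for the other tested cytokine genes (right), in each of the 6 libraries. Lines join the points of a gene and mark no order of libraries. *Il12b* and the mature DC genes dip in Δ/Δ 1 and 3 and peak in Δ/Δ 2, while *Il15* lies under its fl/fl mean in all 3 Δ/Δ libraries and *Tnf* above.

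RefSeq promoter windows on GRCm38.p6, from 250 bases before to 50 after a gene's start, were at hand for 8 of the 10 genes, in 9 windows, the others being *Il15* and *Il27*. The windows of the 3 genes that moved together across the libraries (*Il12b*, *Il1b* and *Il6*) and of *Tnf* are shown, since the deleted proteins bind DNA. Each runs 5′ to 3′ on the gene's strand. Capitals mark matches on either strand to TGANTCA (AP-1), TATAAA (the TATA box) or the NF-κB motif, NF-κB being the factor through which microbial signals induce these genes.
*Il12b*, chr11:44399813-44400112, plus strand: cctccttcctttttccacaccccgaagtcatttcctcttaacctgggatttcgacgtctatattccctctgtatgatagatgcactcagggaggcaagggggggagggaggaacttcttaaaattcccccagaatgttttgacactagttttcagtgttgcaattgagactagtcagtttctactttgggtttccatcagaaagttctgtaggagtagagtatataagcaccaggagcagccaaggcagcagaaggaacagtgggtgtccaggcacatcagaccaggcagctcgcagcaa
*Il1b*, chr2:129371090-129371389, minus strand: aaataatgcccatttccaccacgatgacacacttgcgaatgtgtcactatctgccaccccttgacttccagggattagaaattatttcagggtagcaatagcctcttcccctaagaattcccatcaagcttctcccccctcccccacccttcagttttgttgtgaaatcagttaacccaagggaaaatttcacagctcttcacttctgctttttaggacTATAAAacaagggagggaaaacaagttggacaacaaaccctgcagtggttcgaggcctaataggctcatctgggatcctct
*Il6*, chr5:30012864-30013163, plus strand: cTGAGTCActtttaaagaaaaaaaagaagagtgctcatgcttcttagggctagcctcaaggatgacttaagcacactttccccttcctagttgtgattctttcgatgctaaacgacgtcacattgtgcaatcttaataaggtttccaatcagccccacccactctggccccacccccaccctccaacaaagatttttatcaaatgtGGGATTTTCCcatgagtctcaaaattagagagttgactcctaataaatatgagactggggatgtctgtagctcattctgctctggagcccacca
*Tnf*, chr17:35201958-35202257, minus strand: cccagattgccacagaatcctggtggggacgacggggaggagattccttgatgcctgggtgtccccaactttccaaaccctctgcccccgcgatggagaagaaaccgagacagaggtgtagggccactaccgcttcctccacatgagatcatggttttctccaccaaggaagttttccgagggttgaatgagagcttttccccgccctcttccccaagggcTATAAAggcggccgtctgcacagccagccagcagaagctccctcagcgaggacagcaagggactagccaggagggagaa

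Among the 9 windows, TGANTCA occurred in that of *Il6* alone, at bases −249 to −243 from the start site. Of all 32851 windows in the table, 7.81% held it. The cAMP response motif TGACGTCA (1.79% of all windows), the interferon response motif GAAANNGAA (8.56%) and the AP-1 and IRF composite (GAAA directly before TGANTCA, or TTTC with 4 bases between, 0.244%) occurred in none of the 9. The NF-κB motif, in 8.46% of all windows, occurred in those of *Il6* (−44 to −35), *Ebi3* and *Tgfb1*. TATAAA, in 13.6% of all windows, lay at −31 to −26 in *Il1b* and at −29 to −24 in *Tnf*, and once far from the start in *Il18*. The window of *Il12b* held none of these motifs. A match is not a binding site, and a window without one says only that these letters are not in it.

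The genes around these cytokines were taken from 5 further lists. Over all tested genes, 3.88% passed the adjusted p in either direction and 19.4% had an unadjusted p under 0.05. Of 20 receptor genes, 18 were tested and 2 passed the adjusted p, both higher in Δ/Δ, with a median log2FC of 0.13 over the 18. Besides *Tgfbr2* this was *Il6st*, the gp130 chain through which IL-6 and IL-27 signal, with 753, 785 and 871 CPM in fl/fl, against 1081, 1366 and 1339 CPM in Δ/Δ cells (log2FC 0.65 ± 0.10, edgeR adjusted p = 0.0204). Of 27 signal adaptor genes, all tested, *Stat5a* rose (85.4, 89.7 and 94.0 against 107, 121 and 130.0 CPM, log2FC 0.41 ± 0.08, edgeR adjusted p = 0.0460) and *Smad3* fell. STAT5 carries signals of GM-CSF and IL-2 family cytokines. Their median was 0.16. Of 32 transcription factor genes, 30 were tested and 1, *Irf7*, passed, lower in Δ/Δ, with a median of 0.12. The NF-κB subunits *Rel* and *Rela*, with log2FCs of 0.11 and 0.09, and the cDC1 factors *Irf8* (0.04) and *Batf3* (0.09) did not pass. Of the 30, 23 had a log2FC above 0 and 7 below. *Irf4* was higher without overlap (34.5 ± 8.52 against 82.5 ± 33.5 CPM, log2FC 1.26 ± 0.30, edgeR adjusted p = 0.0699). It passed by DESeq2 (adjusted p = 7.8e-05), and with a replicate term it was the 1 factor that passed (edgeR adjusted p = 0.00951).

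Of 25 genes of cytokine maturation, release and transcript decay, 22 were tested and 0 passed by edgeR, with 9 at an unadjusted p under 0.05 and a median of 0.25. DESeq2, by which 8.56% of all genes passed, gave 4 (*Zc3h12a*, *Furin*, *Nrros* and *Zfp36l2*). Of 36 other cytokine genes, 28 had too few reads and 15 had none in any library. Of the 8 tested, 0 passed by edgeR, 1 had an unadjusted p under 0.05 (*Ltb*, which encodes lymphotoxin β, log2FC 0.70 ± 0.23), and DESeq2 gave 0. *Il16* was the most abundant of these at 218 to 278 CPM. Leaving out 1 library moved some of these counts by over 1.5 times, to 0 or from 0, and others less or not at all. Without fl/fl 1 or without fl/fl 2, 0 genes of the 5 lists passed by edgeR, where 0.719% and 0.716% of all genes passed. Without fl/fl 3 (1.51% of all genes) the receptors and signal adaptors gave 0, and without Δ/Δ 3 (2.65%) the receptors gave 0. Without Δ/Δ 1, when 9.96% of all genes passed, the signal adaptors gave 9, the transcription factors 8 and the maturation list 7. Without Δ/Δ 2, when 5.43% of all genes passed, the receptors gave 4.

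**Figure D5:**
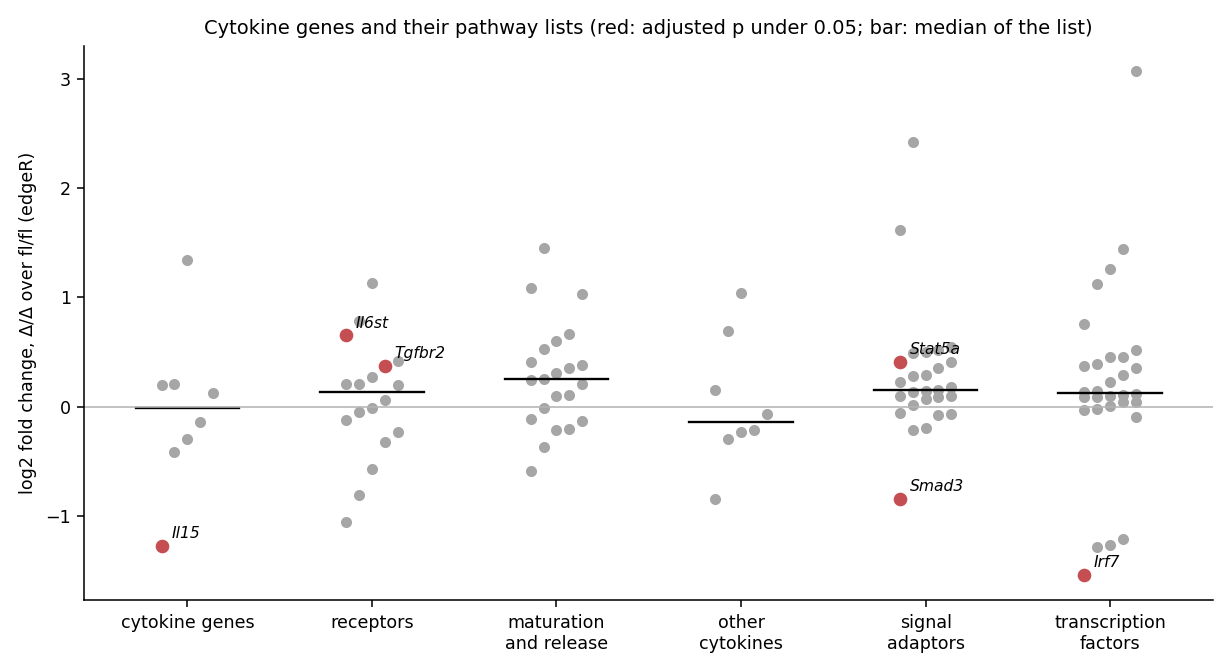
log2FC of Δ/Δ over fl/fl by edgeR for each tested gene of the cytokine genes and of 5 lists of their pathway (points spread sideways for visibility, red for an adjusted p under 0.05, bar at the median). *Il15*, *Il6st*, *Tgfbr2*, *Stat5a*, *Smad3* and *Irf7* pass, and the medians lie between −0.14 and 0.25.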

How the data were processed

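RNA of sorted cDC1s FL was measured in 6 libraries, 3 per genotype. The authors made strand-specific poly(A) libraries, sequenced them on a NextSeq500, aligned reads to mm10 with STAR 2.6.1a and Gencode vM19 and deposited raw counts per gene. Names and exon lengths came from GENCODE M21 on the same build, which matched 54495 of 54532 identifiers. Rows of reads outside genes were left out. Of these reads and those on genes, 79.1 to 79.7% lay on genes.

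The test was the quasi-likelihood test of edgeR 4.0.16 (R 4.3.3) on genotype alone, with TMM factors of 0.989 to 1.01, low genes removed by filterByExpr (minimum count 10, minimum total 15) and Benjamini-Hochberg adjustment over 12894 genes. Log2 CPM used a prior count of 2. RPKM is CPM per kilobase of all annotated exon bases. Alternatives were DESeq2 1.42.0, its size factors, library totals alone, limma-voom 3.58.1, no or a stricter filter (at least 10 reads and 1 CPM on average), omission of each library, a replicate term, other limits for a call and 2 covariates added after the data were seen. The steps were tested on simulated data.

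The cytokine genes and all lists were chosen with earlier results of these data known, and 1 gene of the transcription factor list is not reported here. Genes named are all 10 cytokine genes, *Jun*, *Junb*, *Itgax*, genes of a pathway list past an adjusted p of 0.05, the 3 genes most like a passing cytokine gene, and partners of the cytokines. Those partners, *Irf4* and the genes most like *Il12b* were named after their values were seen.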

Additional observations from a re-analysis of the deposited data

How the results depend on the processing

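*Il12a* and *Il27*, with at most 6 and 4 reads in any library, had too few reads for the test. *Il18*, *Tgfb1* and *Ebi3* kept their direction and stayed above an adjusted p of 0.05 in all 15 alternatives. *Il15* kept its direction in all 15 (log2 fold change −1.44 to −0.99) and passed in 11. It missed without each fl/fl library (edgeR adjusted p of 0.0731 to 0.110) and with an immediate early covariate (−0.99). *Tnf* was higher in all 15 (0.89 to 1.53) and passed in 5. *Il12b* was reversed by limma-voom (−1.23), by a replicate block (−1.12), with an immediate early covariate (−2.85), with a mature DC covariate (−0.31) and without Δ/Δ 2 (−2.29). With any other library left out it kept its direction (0.0076 to 0.67). With 1 library left out *Il1b* ran from −1.26 to 0.18 and *Il6* from −1.09 to 0.18. *Il6* had no value under the stricter filter, and *Il12a* and *Il27* were tested with no filter alone.

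The main settings gave 1 cytokine gene, called and past the adjusted p alike. Over all genes 3.88% passed the adjusted p in the main fit. DESeq2 (8.56% of all genes past the adjusted p) and no filter (3.31%) gave 2 for both. A mature DC covariate (6.89%) gave 2 for both and an immediate early covariate (1.57%) 0 for both. An unadjusted p under 0.05, held by 19.4% of all genes at any fold change, gave 2 called. With 1 library left out, 0 to 2 were called and 0 to 3 passed the adjusted p, where 0.716% to 9.96% of all genes passed. For the lists, main counts were 2 receptor, 0 maturation and release, 0 other cytokine, 2 signal adaptor and 1 transcription factor gene, where 3.88% of all genes passed. DESeq2 (8.56% of all genes) gave 4 maturation and release, 7 signal adaptor and 5 transcription factor genes, no filter (3.31%) 4, 5 and 4, and DESeq2's size factors 1 maturation and release gene. The replicate block gave 1 receptor and 1 maturation and release gene, and 417 genes past the adjusted p against 500 over all genes. The labels do not say whether the replicate numbers pair the libraries. Same-numbered deviations from the group means correlated at 0.09, −0.15 and 0.20 for numbers 1, 2 and 3. The last was the highest of any fl/fl and Δ/Δ pair, while Δ/Δ 1 correlated best with fl/fl 2 (0.15). With so few libraries these correlations cannot decide whether the libraries were paired. With 1 library left out, counts ran from 0 to 4 receptor, 0 to 7 maturation and release, 0 to 1 other cytokine, 0 to 9 signal adaptor and 0 to 8 transcription factor genes. The cause of these shifts was not tested. Each fit with 1 library left out kept at least 2 per genotype.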

Other observations

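Feedback genes that cytokine receptors induce, looked at after their values were seen, were also highest in Δ/Δ 2. *Cish*, which damps STAT5 signals, had 29.3 CPM in Δ/Δ 2 and 0.27 to 4.07 CPM in the other libraries. *Socs3*, which damps gp130 signals, had 3.66, 5.04 and 8.27 CPM in fl/fl libraries and 7.75, 28.9 and 15.5 CPM in those of Δ/Δ. *Socs1*, which damps interferon signals, had 4.86, 4.23 and 4.96 CPM in fl/fl libraries and 1.83, 9.70 and 1.89 CPM in those of Δ/Δ, with Δ/Δ 1 and 3 under and Δ/Δ 2 above every fl/fl library. None of the 3 passed with all 6 libraries (edgeR adjusted p of 0.386, 0.136 and 0.966). Without Δ/Δ 2, *Socs1* had a log2FC of −1.33 (SE 0.22, edgeR adjusted p = 0.0232).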
